A study of Homo sapiens with 6 samples.

Results

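The mitochondrial ribosomal protein genes were taken as all gene symbols made of MRPL or MRPS, a number and at most 1 further letter. This rule uses no measured value, but it was set with earlier results of these data known. Among the 35130 gene names of each library 77 met this rule, 48 for the large subunit (MRPL) and 29 for the small subunit (MRPS). RNA-seq compared the human neuroblastoma line SK-N-BE(2) after 24 h with 1 µM NEN or after 24 h with the solvent DMSO, with 3 libraries per group that the labels call biological replicates. NEN is given in the labels by its abbreviation alone. In published neuroblastoma studies NEN stands for niclosamide ethanolamine, which uncouples mitochondrial respiration, and that identity is background here. Both groups were grown in DMEM/F12 with 10% fetal bovine serum, so the data describe 1 line at 1 dose and 1 time. The labels do not say whether replicates were separate cultures, and p-values then measure only the spread between these libraries. Values are TPM, which scale each transcript by its length and by the library total. TPM keeps no read numbers, so the depth behind each value is unknown, and a gene's TPM can be lower because other transcripts take more of the total. In bulk RNA, fewer cells of a type and less RNA per cell cannot be told apart.

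Mitochondrial ribosomes translate the few mRNAs of mitochondrial DNA, all of which encode core subunits of the respiratory chain and ATP synthase. Their ribosomal RNAs come from mitochondrial DNA, while the proteins of both subunits are encoded in the nucleus, made in the cytosol and imported. Some of these proteins descend from bacterial ribosomal proteins, and others were added in the mitochondrial lineage and have no bacterial counterpart. For 3 of the genes the symbol and the place of the protein differ. MRPS18A and MRPS30 carry small subunit symbols, but their proteins sit in the large subunit in structures of the human mitochondrial ribosome. The gene listed as MRPS36 is KGD4 in RefSeq, and its protein belongs to the 2-oxoglutarate dehydrogenase complex of the citric acid cycle.

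Regions of 300 bases around the start site, 250 before it and 50 after it, were found for 69 of the 77 genes in RefSeq, assembly GRCh38.p14. MRPL2, MRPL10, MRPL13, MRPL15, MRPL21, MRPL23, MRPL35 and MRPS28 had no entry. Shown here are the regions of MRPS18B, which rose, and of 4 genes that fell. MRPL1 had the largest fall, and MRPL46 shares its upstream region with MRPS11, another gene that fell. MRPL20 and MRPL47 each hold both an ETS and a YY1 match. MRPL51, which fell, and MRPL38 and MRPL52, which were not called, also hold both and are not shown. The regions lie at chr6:30617590-30617889 on the plus strand (MRPS18B), chr4:77862580-77862879 on the plus strand (MRPL1), chr15:88467339-88467638 on the minus strand (MRPL46), chr1:1407244-1407543 on the minus strand (MRPL20) and chr3:179604589-179604888 on the minus strand (MRPL47). Sequences run 5′ to 3′ on the gene's strand, and capitals mark letters that match 1 of 4 motifs searched on both strands: CACGTG (the E-box, bound by MYC family proteins), CCGGAAGT (bound by ETS family proteins), GCGCATGC (the core of the NRF1 motif) and AAGATGGC (bound by YY1).
MRPS18B: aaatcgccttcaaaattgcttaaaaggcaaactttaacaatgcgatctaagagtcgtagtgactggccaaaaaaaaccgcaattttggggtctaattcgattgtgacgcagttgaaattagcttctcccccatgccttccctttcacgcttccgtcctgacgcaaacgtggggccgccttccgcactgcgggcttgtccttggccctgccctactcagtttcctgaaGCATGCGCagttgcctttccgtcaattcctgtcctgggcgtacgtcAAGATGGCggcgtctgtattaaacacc
MRPL1: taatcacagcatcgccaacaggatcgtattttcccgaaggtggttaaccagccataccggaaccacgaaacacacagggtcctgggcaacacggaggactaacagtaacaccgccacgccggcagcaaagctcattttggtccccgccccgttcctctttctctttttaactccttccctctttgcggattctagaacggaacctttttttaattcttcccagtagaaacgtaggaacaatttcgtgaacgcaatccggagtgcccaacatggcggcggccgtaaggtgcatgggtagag
MRPL46: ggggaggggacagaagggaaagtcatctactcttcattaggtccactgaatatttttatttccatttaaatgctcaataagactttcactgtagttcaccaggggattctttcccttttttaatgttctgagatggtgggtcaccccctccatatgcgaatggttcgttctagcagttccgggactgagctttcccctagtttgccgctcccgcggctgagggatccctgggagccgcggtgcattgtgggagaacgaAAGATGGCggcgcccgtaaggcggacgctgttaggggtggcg
MRPL20: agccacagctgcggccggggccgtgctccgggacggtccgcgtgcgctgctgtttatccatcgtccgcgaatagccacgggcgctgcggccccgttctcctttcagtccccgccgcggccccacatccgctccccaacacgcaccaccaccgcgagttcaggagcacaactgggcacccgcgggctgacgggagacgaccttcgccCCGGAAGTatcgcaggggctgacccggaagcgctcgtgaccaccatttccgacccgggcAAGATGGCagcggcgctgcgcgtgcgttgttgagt
MRPL47: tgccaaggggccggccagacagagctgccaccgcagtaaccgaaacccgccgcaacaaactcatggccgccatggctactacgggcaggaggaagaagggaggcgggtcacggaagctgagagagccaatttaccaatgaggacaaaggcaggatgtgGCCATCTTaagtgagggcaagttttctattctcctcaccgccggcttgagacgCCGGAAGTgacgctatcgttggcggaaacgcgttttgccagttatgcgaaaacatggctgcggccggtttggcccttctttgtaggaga
Positions count from 0 at the first of the 50 bases after the start, with bases before it negative. MRPS18B held the NRF1 core on the reverse strand at -23 to -16 and the YY1 motif at 23 to 30. MRPL46 held the YY1 motif at 8 to 15. MRPL20 held the ETS motif at -44 to -37 and the YY1 motif at 15 to 22. MRPL47 held the ETS motif at -39 to -32 and the YY1 motif on the reverse strand at -92 to -85. The 4 sets of letters did not occur in the MRPL1 region.

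Relative to DMSO, 25 mitochondrial ribosomal protein genes fell in NEN-treated cells and 3 rose, with log2 fold changes from -0.78 to 0.58. The falls included MRPL1, MRPS11, MRPL18, MRPL20 and MRPL3, and the rises were MRPL10, MRPL2 and MRPS18B. Of the 77 genes, 76 reached an average of 1 TPM across the 6 libraries and were tested among 12576 genes. Each was tested with limma on log2(TPM + 1), and a gene was called at a Benjamini-Hochberg adjusted p under 0.05 over all 12576. Among all tested genes 30.0% were called, with 16.5% that fell and 13.5% that rose, while of the 76 members 32.9% fell and 3.95% rose. The other 48 members were not called, with fold changes from -0.36 for MRPL13 to 0.31 for MRPL24, and MRPL13 was called without NEN replicate 3 (-0.49, adjusted p = 0.0274). Signs were negative for 54 members and positive for 22. The median log2 fold change of the members was -0.12 (quartiles -0.32 and 0.046), against -0.025 over all tested genes (quartiles -0.29 and 0.24). All 3 NEN libraries lay below all 3 DMSO libraries for 35 members and above them for 7, while the same held for 25.0% and 21.8% of all tested genes. Each fold change is the NEN mean less the DMSO mean of log2(TPM + 1), and the added 1 makes changes of low genes look smaller.

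The count of falls was lower when single libraries were left out, as was the count of calls over all genes. Falls of members numbered 16 without NEN replicate 3, 15 without DMSO replicate 2 and 15 without DMSO replicate 3. In these fits 2554, 2653 and 2868 of all tested genes were called in either direction, against 3773 with all libraries. The count of member rises was 3 without any one of the libraries. Of the 28 calls, 10 held under each of 15 alternative settings, namely the rises of MRPS18B and MRPL2 and the falls of MRPL1, MRPS11, MRPL18, MRPL20, MRPL3, MRPL47, MRPS7 and MRPL48. No called gene changed sign under any of the 15.

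**Figure D1:**
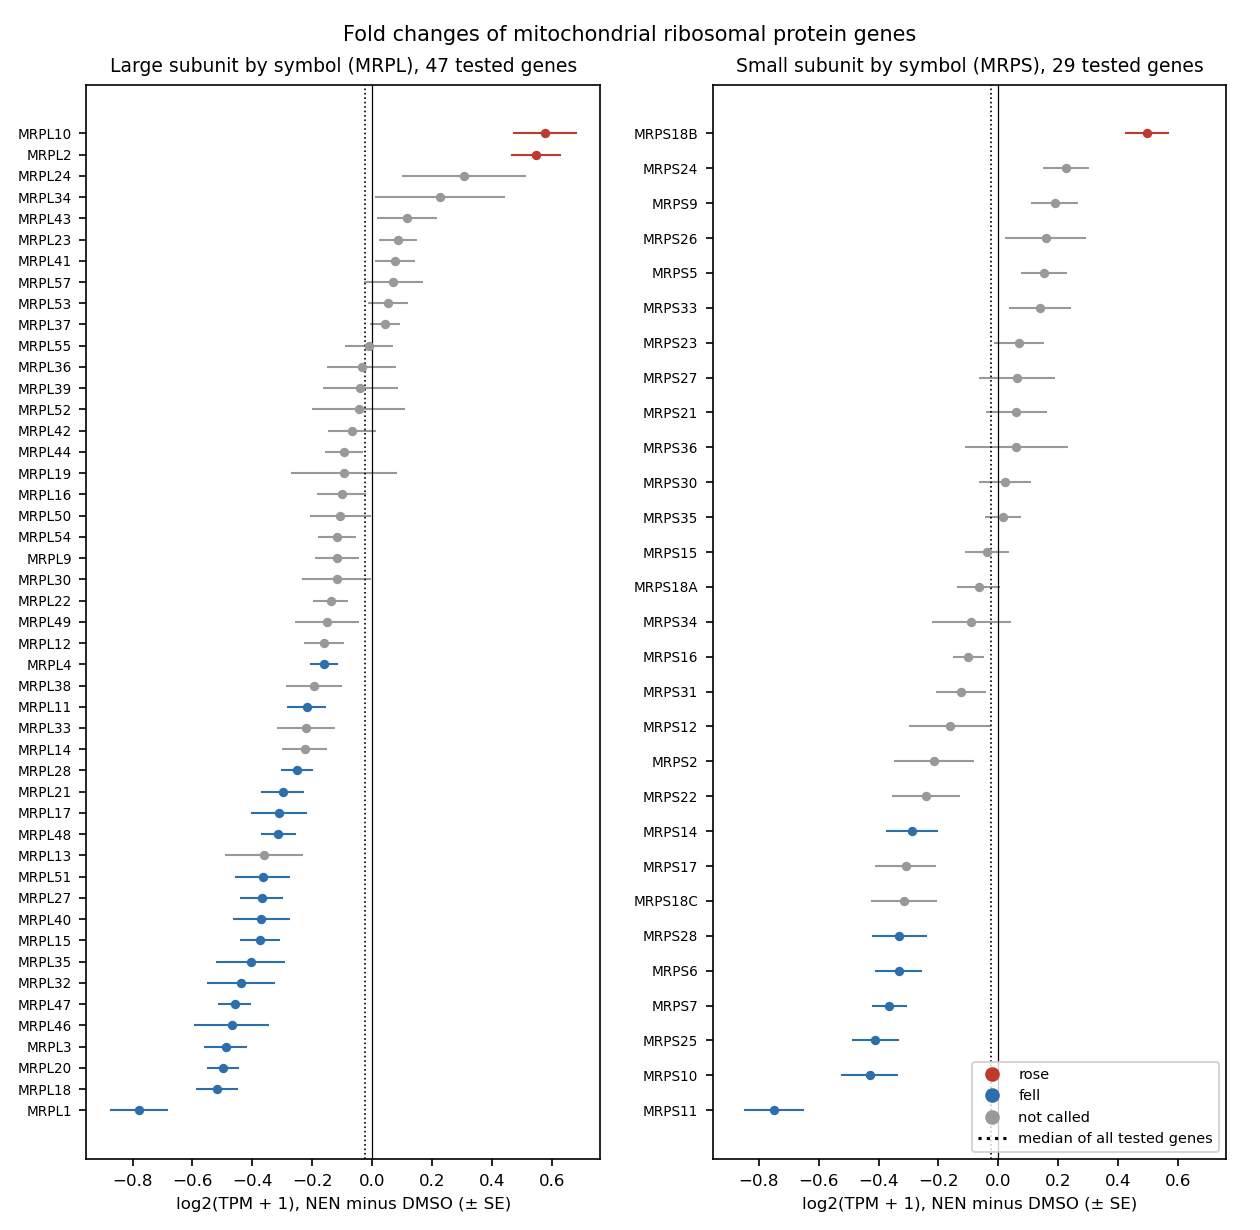
Log2 fold change of each tested MRPL gene (left) and MRPS gene (right), NEN minus DMSO of log2(TPM + 1), with bars of 1 standard error. Red points rose, blue points fell and grey points were not called, the dotted line is the median of all tested genes at -0.025, and most points lie left of it, from MRPL1 at -0.78 to MRPL10 at 0.58.

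The 3 genes that rose encode proteins of different places in the ribosome. MRPL10 forms the base of the stalk that recruits translation factors to the large subunit. Its level was 60.1, 52.2 and 50.2 TPM in the NEN libraries, against 40.9, 33.9 and 33.4 TPM in the DMSO libraries. The groups did not overlap, and MRPL10 rose by 0.58 ± 0.11 (SE, adjusted p = 0.00735). MRPL2 lies close to the catalytic centre of the large subunit, where peptide bonds are formed. It stood at 88.9, 83.8 and 73.9 TPM in NEN and at 53.0, 55.9 and 58.5 TPM in DMSO. Every NEN library was higher than every DMSO library, and the rise was 0.55 ± 0.08 (adjusted p = 0.00368). MRPS18B is 1 of 3 human relatives of a single bacterial small subunit protein and belongs to the small subunit. NEN libraries held 86.8, 82.9 and 76.2 TPM of it and DMSO libraries 61.1, 54.7 and 57.5 TPM. MRPS18B rose by 0.50 ± 0.07 (adjusted p = 0.00341), again without overlap of the groups.

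The other relatives of that bacterial protein were not called. MRPS18A had 44.7, 47.6 and 45.1 TPM in NEN libraries and 50.8, 45.4 and 47.9 TPM in DMSO libraries, a difference of -0.065 ± 0.071 (adjusted p = 0.527) with overlapping groups. MRPS18C had 32.5, 29.3 and 30.1 TPM in NEN libraries and 42.7, 40.2 and 32.8 TPM in DMSO libraries. All NEN values of MRPS18C lay below those of DMSO, yet the difference of -0.31 ± 0.11 missed the threshold (adjusted p = 0.0666), with a value of -0.42 (adjusted p = 0.0209) without DMSO replicate 3. No test compared MRPS18A, MRPS18B and MRPS18C with each other.

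The largest falls were those of MRPL1 and MRPS11. MRPL1 is the counterpart of a bacterial protein on the mobile stalk beside the site where tRNAs leave the large subunit. It measured 14.7, 14.8 and 12.8 TPM in NEN and 24.2, 26.5 and 23.9 TPM in DMSO. The highest NEN library lay well under the lowest DMSO library, and the difference was -0.78 ± 0.10 (adjusted p = 0.00174). MRPS11 belongs to the platform of the small subunit, the part that faces the large subunit near the exit of the mRNA. Its TPM was 43.3, 54.4 and 47.1 in NEN libraries and 88.7, 75.6 and 80.6 in DMSO libraries. MRPS11 fell by 0.75 ± 0.10 (adjusted p = 0.00234) with no overlap.

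The next largest falls were those of MRPL18, MRPL20, MRPL3, MRPL46, MRPL47 and MRPL32, all for the large subunit. MRPL18 belongs to a family whose bacterial member binds the smallest ribosomal RNA. It had 107, 107 and 99.5 TPM in NEN libraries, against 138, 159 and 154 TPM in DMSO libraries, and fell by 0.52 ± 0.07 (adjusted p = 0.00237). MRPL20, whose bacterial counterpart acts early in the assembly of the large subunit, was the member with the second highest mean level. Its NEN libraries held 289.8, 273 and 302 TPM and its DMSO libraries 402, 405 and 415 TPM, a difference of -0.50 ± 0.05 (adjusted p = 0.00111). MRPL3 reaches from the surface of the large subunit towards its catalytic centre, and mutations in it cause a combined deficiency of respiratory chain complexes in people. MRPL3 levels were 135, 123 and 119 TPM in NEN and 181, 184 and 164 TPM in DMSO, and it fell by 0.49 ± 0.07 (adjusted p = 0.00301). In each of these 3 genes the NEN libraries lay below the DMSO libraries.

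MRPL47 is a protein at the mouth of the tunnel through which the new protein leaves. It had 67.9, 69.7 and 70.7 TPM in NEN libraries and 98.8, 93.9 and 94.5 TPM in DMSO libraries, a difference of -0.46 ± 0.06 (adjusted p = 0.0016). The spread within either group was small, with an SD of 1.4 TPM in NEN and 2.7 TPM in DMSO (n = 3 each). MRPL46 is a mitochondria-specific protein of the central protuberance, the crown of the large subunit. Its NEN libraries stood at 34.7, 32.9 and 27.1 TPM and its DMSO libraries at 44.6, 38.3 and 49.1 TPM, a difference of -0.47 ± 0.13 (adjusted p = 0.0285). Leaving out NEN replicate 2 (adjusted p = 0.0607), NEN replicate 3 (adjusted p = 0.0816), DMSO replicate 1 (adjusted p = 0.0637) or DMSO replicate 3 (adjusted p = 0.0845) ended the call of MRPL46. MRPL32 is matured by a protease of the inner membrane before it enters the ribosome. It had 73.8, 55.6 and 70.8 TPM in NEN libraries and 84.5, 97.4 and 88.6 TPM in DMSO libraries, a difference of -0.44 ± 0.11 (adjusted p = 0.0265). NEN replicate 2 was the low library. Leaving out DMSO replicate 2 (adjusted p = 0.0883) or DMSO replicate 3 (adjusted p = 0.0636) ended the call.

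**Figure D2:**
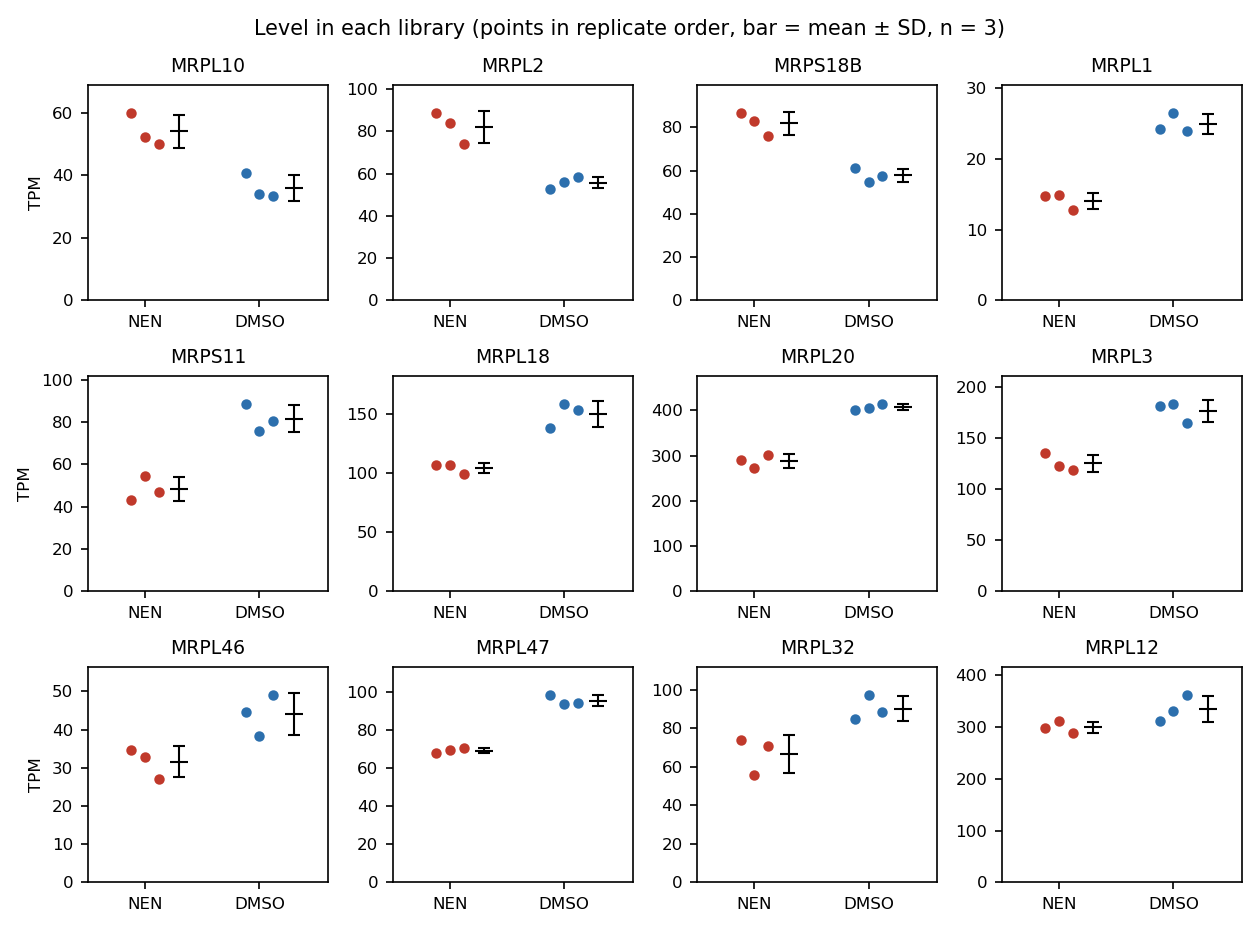
TPM in each library for the 3 members that rose, the 8 largest falls and MRPL12. NEN points stand left of DMSO points, in replicate order, with bars for the mean ± SD (n = 3); the groups do not overlap in any of the 12 panels, and MRPL12, at 289 to 312 TPM in NEN and 313 to 363 TPM in DMSO, was not called.

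The remaining 17 falls were smaller. They ran in size from -0.43 for MRPS10, -0.41 for MRPS25, -0.405 for MRPL35, -0.37 each for MRPL15, MRPL40 and MRPL27, -0.365 for MRPL51 and -0.36 for MRPS7 to -0.33 each for MRPS6 and MRPS28. MRPL48 and MRPL17 fell by 0.31, MRPL21 fell by 0.30, MRPS14 fell by 0.29, MRPL28 fell by 0.25, MRPL11 fell by 0.22 and MRPL4 fell by 0.16. In all 17 genes the NEN libraries lay below the DMSO libraries. MRPS7, a head protein that contacts the small subunit's ribosomal RNA, and MRPL48 were called under every alternative. Without 1 library the call was lost for MRPL28 (NEN replicate 3, adjusted p = 0.0502), MRPS6 (NEN replicate 3 or DMSO replicate 2 or 3, adjusted p = 0.0505 to 0.0593), MRPL51 (NEN replicate 1 or DMSO replicate 2 or 3, adjusted p = 0.0591 to 0.069) and MRPL21 (NEN replicate 1 or 3 or DMSO replicate 2, adjusted p = 0.0631 to 0.068). It was lost for MRPS28 without NEN replicate 1 or 3 or DMSO replicate 2 or 3 (adjusted p = 0.0872 to 0.101). MRPL40 and MRPS14 lost it without any library but NEN replicate 2 (adjusted p = 0.0524 to 0.0834 and 0.0745 to 0.125). MRPL17 lost it without any library but NEN replicate 1 (adjusted p = 0.057 to 0.122), MRPL11 without any but NEN replicate 3 (adjusted p = 0.0639 to 0.117), MRPL35 without any but DMSO replicate 2 (adjusted p = 0.0614 to 0.11) and MRPL4 without any but DMSO replicate 1 (adjusted p = 0.0753 to 0.106).

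Of the 3 members with the highest mean levels, MRPL33, MRPL20 and MRPL12, MRPL20 was called and the others were not. MRPL33, a short protein of the large subunit, had 333, 345 and 322 TPM in NEN libraries and 333, 432 and 408 TPM in DMSO libraries. DMSO replicate 1 lay among the NEN libraries, and the difference was -0.22 ± 0.10 (adjusted p = 0.126), or -0.33 (adjusted p = 0.00562) without that library. MRPL12 occurs in several copies on the factor-binding stalk and has also been found bound to the mitochondrial RNA polymerase. It stood at 298, 312 and 289 TPM in NEN and 313, 330.4 and 363 TPM in DMSO. The NEN libraries lay just below the DMSO libraries, and the difference of -0.16 ± 0.07 was not called (adjusted p = 0.114). MRPL12 was called without DMSO replicate 1 (-0.21, adjusted p = 0.0405) and after a correction for transcript length and GC content (-0.39, adjusted p = 0.00165).

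MRPL45, which lines the exit tunnel on the side of the inner membrane, was listed at 0 in all 6 libraries and was not tested. Without read numbers, a listed 0 does not show whether the gene was expressed. The lowest of the other members were MRPL50 and MRPS31. MRPL50 had 10.8, 9.62 and 10.4 TPM in NEN libraries and 11.6, 10.9 and 10.8 TPM in DMSO libraries (-0.11 ± 0.10, adjusted p = 0.469). MRPS31 had 17.4, 17.2 and 17.8 TPM in NEN libraries and 19.6, 19.7 and 18.2 TPM in DMSO libraries (-0.13 ± 0.08, adjusted p = 0.296). In MRPL50 and MRPS31 the groups did not overlap although neither was called. For MRPL50 the groups all but touched, with a highest NEN value of 10.827 TPM and a lowest DMSO value of 10.833 TPM. Levels of MRPS31 are uncertain because the pseudogenes MRPS31P4 and MRPS31P5 were listed at up to 11.6 and 6.08 TPM and may share reads with it. Of 71 listed pseudogene names of this family, 62 were at 0 in all libraries and 6 passed 1 TPM in any library.

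The genes whose symbol and structural place differ were not called. MRPS30, a protein of the large subunit, had 53.5, 47.0 and 51.5 TPM in NEN libraries and 54.2, 49.7 and 45.6 TPM in DMSO libraries, a difference of 0.023 ± 0.088 (adjusted p = 0.872). MRPS36, the dehydrogenase protein, had 21.5, 27.1 and 26.5 TPM in NEN libraries and 18.2, 26.3 and 28.2 TPM in DMSO libraries, a difference of 0.06 ± 0.17 (adjusted p = 0.824). In both genes the groups overlapped.

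Falls were found in both subunits. Of 47 tested MRPL genes 18 fell (38.3%) and 2 rose, with a median of -0.15, and 23 had all NEN libraries below all DMSO libraries. Of 29 MRPS genes 7 fell (24.1%) and 1 rose, with a median of -0.090, and 12 had all NEN libraries below. Over all tested genes 16.5% fell, 13.5% rose and 25.0% had all NEN libraries below, with a median of -0.025. The medians differed by -0.060, MRPL minus MRPS. The pooled SD of this difference within the groups was 0.0356, and the difference was -0.099 without DMSO replicate 1 and -0.16 after a correction for transcript length and GC content. Taken from the DMSO mean, MRPL and MRPS medians in NEN replicates 1 to 3 were -0.167 and -0.0985, -0.169 and -0.0796, and -0.169 and -0.113. In DMSO replicates 1 to 3 they were -0.012 and 0.0514, -0.0119 and 3.37e-05, and 0.0224 and -0.00879. By these values the gap between subunits in DMSO replicate 1 lay within the range of the NEN libraries, but that DMSO mean includes the library itself. Taken from the mean of the other DMSO libraries, its MRPL and MRPS medians were -0.018 and 0.0771. That gap was wider than in any NEN library. Under quantile normalization the median fold changes were -0.091 for MRPL and -0.024 for MRPS. With MRPS18A and MRPS30 counted with the large subunit and MRPS36 left out, the large subunit median was -0.14 (18 of 49 fell) and that of the small subunit -0.11 (7 of 26 fell). The count of calls was not tested between subunits.

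Summed levels of both subunits were lower in each NEN library than in each DMSO library. MRPL genes together held 4973, 4953 and 4794 TPM in NEN libraries and 5313, 5557 and 5657 TPM in DMSO libraries. MRPS genes together held 2184, 2198 and 2121 TPM in NEN libraries and 2223, 2288 and 2298 TPM in DMSO libraries. The ratio of large to small was 2.28, 2.25 and 2.26 in NEN and 2.39, 2.43 and 2.46 in DMSO, without overlap. MRPL33, MRPL20 and MRPL12 weigh heavily in such sums. Without them the ratio was 1.855, 1.83 and 1.83 in NEN and 1.92, 1.92 and 1.946 in DMSO, and the NEN minus DMSO difference of its mean shrank to -0.0897, against -0.16 with them. All members together took 0.770%, 0.770% and 0.744% of the listed TPM in NEN libraries and 0.807%, 0.841% and 0.853% in DMSO libraries.

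**Figure D3:**
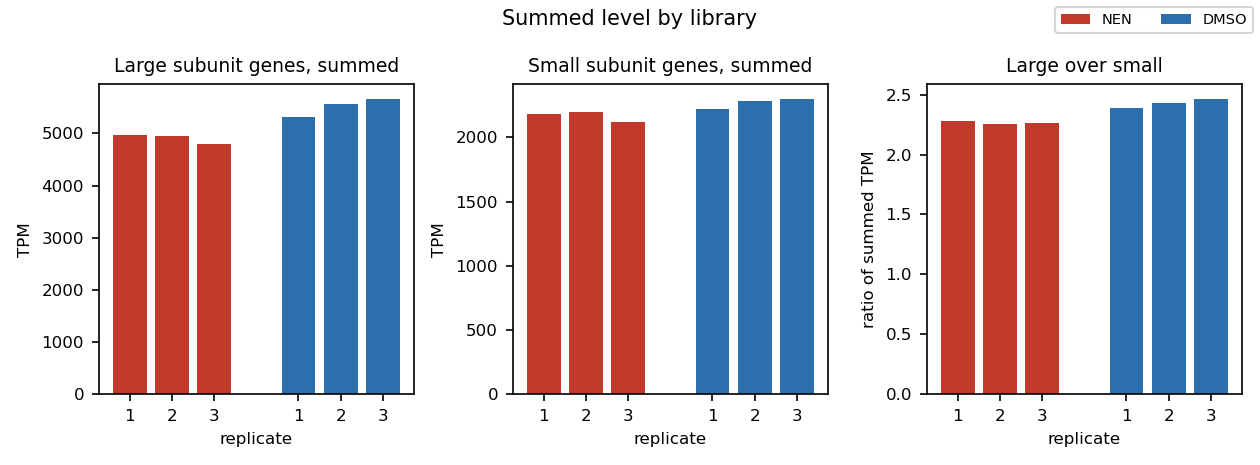
Summed TPM of the MRPL genes and of the MRPS genes, and the ratio of these sums, in each of the 3 NEN libraries (red) and 3 DMSO libraries (blue). The ratio lies between 2.25 and 2.28 in NEN and between 2.39 and 2.46 in DMSO.

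Sorted by origin, the genes with a bacterial counterpart held most of the falls. Of 46 such genes 20 fell (43.5%) and 2 rose, with a median of -0.22, and 26 had all NEN libraries below all DMSO libraries. Of 29 tested mitochondria-specific genes 5 fell (17.2%) and 1 rose, with a median of -0.065, and 9 had all NEN libraries below. Over all tested genes 16.5% fell and 25.0% had all NEN libraries below, so the share of falls among mitochondria-specific genes was close to that of all genes. The 5 were MRPL46, MRPS25, MRPL40, MRPL51 and MRPL48. Both subunits showed this order of medians. In the large subunit 14 of 30 genes with a bacterial counterpart fell (median -0.22), and 4 of 19 mitochondria-specific genes (median -0.068). In the small subunit 6 of 16 fell (median -0.25) and 1 of 10 (median 0.038). The medians of the classes differed by -0.15, bacterial counterpart minus mitochondria-specific, with a pooled SD within groups of 0.0439, and the difference ranged from -0.21 to -0.15 when 1 library was left out. The count of falls with a bacterial counterpart was 13 without NEN replicate 3, 12 without DMSO replicate 2 and 13 without DMSO replicate 3. Among mitochondria-specific genes it was 3 without NEN replicate 1, NEN replicate 3 or DMSO replicate 2, and 2 without DMSO replicate 3. Calls over all tested genes dropped in these fits too. After the length and GC correction 17 genes with a bacterial counterpart and 7 mitochondria-specific genes fell. MRPS18A and MRPS18B were counted as mitochondria-specific, after the systematic names of their proteins, and MRPS36 was in neither class. The classes were compared by count and median alone, with no test.

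**Figure D4:**
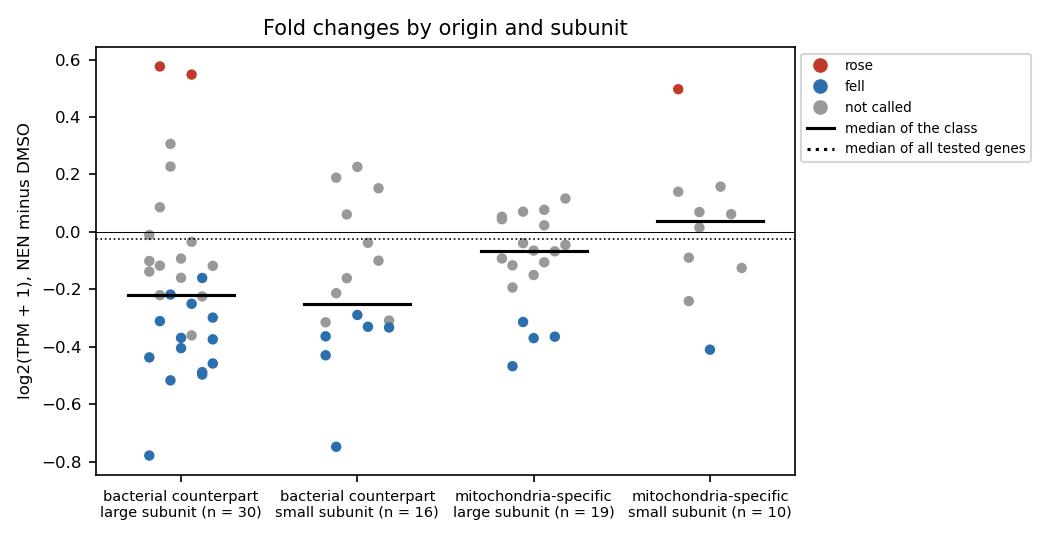
Log2 fold change of each member by origin of the protein and subunit as placed in structures, NEN minus DMSO of log2(TPM + 1). Red points rose, blue points fell and grey points were not called. Thick bars are class medians at -0.22, -0.25, -0.068 and 0.038 from left to right, and the dotted line at -0.025 is the median of all tested genes.

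By place in the ribosome, no region had all its listed members called in one direction. Many members were given no place, so the lists may leave out proteins of a region. Counts and medians cover the listed members only. They stand beside the 32.9% of all members and 16.5% of all tested genes that fell, and were not tested. On the factor-binding stalk MRPL10 rose, MRPL11, which holds the stalk base, fell, and MRPL12 was not called. In the central protuberance MRPL40, MRPL46 and MRPL48 fell and MRPL38 was not called (median -0.34). Around the exit tunnel MRPL4, MRPL17 and MRPL47 fell among 8 tested genes (37.5%, median -0.12), a share and median near those of all members. In the head of the small subunit MRPS7, MRPS10 and MRPS14 fell, while MRPS9 and MRPS24 were not called and had positive values of 0.19 and 0.23 (median of the 5 -0.29). MRPS24 was called under median-ratio scaling (0.25, adjusted p = 0.0378) and quantile normalization (0.29, adjusted p = 0.0249). MRPS9 was called under quantile normalization (0.25, adjusted p = 0.0404) and after the length and GC correction (0.26, adjusted p = 0.0349). On the platform MRPS6 and MRPS11 fell among 4 genes (median -0.32).

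Other genes of mitochondrial translation were read against the 16.5% of all tested genes that fell and the 13.5% that rose. Of 6 further mitoribosomal proteins outside the MRP naming (DAP3, CHCHD1, AURKAIP1, PTCD3, GADD45GIP1 and ICT1), 1 fell (16.7%), a share close to that of all genes. PTCD3, a repeat protein of the small subunit, had 51.9, 52.1 and 57.5 TPM in NEN libraries and 67.0, 66.4 and 63.0 TPM in DMSO libraries (-0.28 ± 0.07, adjusted p = 0.0216). Its call was lost without NEN replicate 1 (adjusted p = 0.0715), NEN replicate 2 (adjusted p = 0.0737) or DMSO replicate 2 (adjusted p = 0.0658). The replicate block (adjusted p = 0.0587) and the fit with no filter (adjusted p = 0.0904) ended it too, as it ended under quantile normalization (adjusted p = 0.055) and after the length and GC correction (adjusted p = 0.0676). Of 44 assembly and translation factors of the mitochondrial ribosome 13 fell (29.5%) and 4 rose (9.09%), with a median of -0.16. FTSJ2 (MRM2), a methyltransferase of the large mitochondrial ribosomal RNA, had the smallest adjusted p of these.

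FTSJ2 stood at 23.3, 24.6 and 22.4 TPM in NEN libraries and at 52.8, 47.4 and 49.1 TPM in DMSO libraries, a difference of -1.055 ± 0.08 (adjusted p = 0.000323). SLIRP, which stabilises mitochondrial mRNAs, had 389.9, 364 and 402 TPM in NEN libraries and 541, 560.1 and 529.7 TPM in DMSO libraries (-0.50 ± 0.06, adjusted p = 0.00122). MTERF4 brings a ribosomal RNA methyltransferase to the large subunit. It had 37.4, 41.0 and 36.3 TPM in NEN libraries and 58.8, 61.8 and 54.9 TPM in DMSO libraries (-0.60 ± 0.08, adjusted p = 0.0021). NOA1, a GTPase needed for assembly of the small subunit, rose. It had 40.6, 36.1 and 36.1 TPM in NEN libraries and 25.9, 23.3 and 21.9 TPM in DMSO libraries (0.65 ± 0.09, adjusted p = 0.00289). These 4 genes were called under every alternative in which they could be fitted.

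Lists of related genes had other balances of calls, read against the 16.5% of all tested genes that fell and the 13.5% that rose. Of the 13 mRNAs of mitochondrial DNA, the templates of these ribosomes, 8 fell (61.5%) and 0 rose, with a median of -0.41. These mRNAs took 7.49%, 8.32% and 8.56% of the listed TPM in NEN libraries and 11.6%, 9.57% and 9.53% in DMSO libraries, where DMSO replicate 1 was the highest. Of 79 cytosolic ribosomal protein genes 29 rose (36.7%) and 1 fell (1.27%), with a median of 0.20. Of 76 nuclear subunits of the respiratory chain and ATP synthase 4 rose and 4 fell (5.26% each), with a median of 0.012. The mitochondrial ribosomal RNAs were not analysed here.

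In the start-site regions, the YY1 letters occurred in 20 of 69 members (29.0%), against 5.72% of 9126 tested genes with such a region and 3.03% of all 27305 regions. They lay after the start and on the forward strand in 21.7% of member regions, as in MRPS18B, MRPL46 and MRPL20 above, against 3.32% of those of tested genes. For tested genes only the first forward match of each region was looked at. Their share may therefore be low, but it cannot pass the 5.72% with any match. Members that fell held them in 7 of 21 regions and members not called in 11 of 46. The ETS letters occurred in 15.9% of members and 9.40% of tested genes, and the NRF1 core in 8.70% and 5.94%. The E-box occurred in 10.1% of members and 10.4% of tested genes, with 0 of the 21 regions of members that fell and 6 of the 46 of members not called. The median GC content of the regions was 60.3% in members and 65.7% in tested genes. The letters TATAAA within 50 bases before the start occurred in 0 of 69 member regions and in 1.43% of those of tested genes. A match of letters is a description of the sequence.

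Some members share their upstream region with a neighbour read in the opposite direction. In the RefSeq annotation 19 members had a tested neighbour whose start lay within 1000 bases, head to head. MRPL46 and MRPS11, which both fell, are such a pair, and their 300-base regions share 181 bases. MRPL18 lies beside TCP1, a subunit of the cytosolic chaperonin, which had 391, 383 and 391 TPM in NEN libraries and 459, 475 and 453 TPM in DMSO libraries (-0.25 ± 0.05, adjusted p = 0.00689). MRPL32 lies beside the proteasome gene PSMA2, with 174, 177 and 173 TPM in NEN libraries and 207, 236 and 219 TPM in DMSO libraries (-0.34 ± 0.06, adjusted p = 0.0065). Of the 8 neighbours of members that fell, 4 fell, namely TCP1, PSMA2 and, as each other's neighbour, MRPL46 and MRPS11. Of the 6 such neighbours that are not themselves members 2 fell, against 16.5% of all tested genes. Of the 10 neighbours of members not called, TMEM63B beside MRPL14 rose and 9 were not called. MRPS18B lies beside PPP1R10, which was not called (1.19 ± 0.71, adjusted p = 0.245). The 77 genes lie on 21 chromosomes.

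Transcript composition moved with the fold changes. Across genes, which are not independent replicates, the fold change and transcript GC content had a Spearman's rho of 0.258 over 76 members and 0.251 over 11741 tested genes, and with transcript length it was 0.029 and -0.028. Median GC content was 48.9% in members that fell, 54.0% in those that rose and 50.8% in those not called. The part of composition in the calls was not tested beyond the correction for length and GC content, under which 24 members fell and 4 rose. Of these calls 23 were shared with the main fit and 5 were not. The calls of MRPL32, MRPL35, MRPS28, MRPS14 and MRPL11 were lost under the correction.

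The library and marker checks are given in ranges. The listed TPM summed to between 929054 and 933500 per library, and between 17285 and 18041 names lay above 0. Markers of adrenergic neuroblastoma cells (8 of 8 detected) summed to 3340 to 3603 TPM in NEN libraries and 2508 to 2664 TPM in DMSO libraries. Blood markers summed to 0.382 to 0.508 TPM in NEN and 0.758 to 1.09 TPM in DMSO, with HBB and CD3E at 0 everywhere. Fibroblast markers summed to 3.36 to 11.9 TPM in NEN and 7.50 to 9.88 TPM in DMSO, and endothelial markers to 0.901 to 1.90 TPM in NEN and 0.690 to 1.12 TPM in DMSO. Epithelial markers summed to 0.997 to 2.78 TPM in NEN and 0.870 to 1.35 TPM in DMSO, with KRT5 and KRT14 at 0. The part of the adrenergic marker difference in the members' levels was not tested. DMSO replicate 1 was most often at an extreme of its group, as the highest of the 3 for 33 of 76 members and the lowest for 31.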

How the data were processed

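Total RNA of SK-N-BE(2) cells was extracted with Trizol, per the labels' protocols, which leave unclear whether libraries were made by polyA capture or by rRNA removal. Reads were quantified with kallisto and the build is hg19, per the submitters' processing notes, which name no version. TPM is the unit of the deposited files, which hold 1 library each. The 35130 names stand in every library, 2 of them repeated. Genes were kept at a mean over the libraries of 1 TPM or more. limma 3.58.1 in R 4.3.3, with trend and robust settings and group alone, tested log2(TPM + 1), pseudocount 1, two-sided, with Benjamini-Hochberg adjustment over 12576 genes at a threshold of 0.05. The test was checked on 5 simulated draws of independent normal noise with 200 changed genes each. Those draws hold far fewer changes than were called here, so they do not show how the test did on these data.

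The members, lists and tests were chosen with earlier results of these data known. Values in every library are given for up to 8 called members with the largest rise and 8 with the largest fall, for MRPL12, MRPS18A, MRPS18B, MRPS18C, MRPS30 and MRPS36, and for the 3 highest and 3 lowest by mean TPM. Of the related lists, the first 4 called genes by adjusted p of the 2 lists on the mitochondrial ribosome are named. MRPL13, MRPL24, MRPS9, MRPS24 and the neighbours were named after their values were seen. Origin and place of each protein follow the published structures and systematic names as known, not a file. RefSeq start-site regions (GRCh38.p14) gave sequences and neighbours only, taking the first listed region per gene. Same-numbered libraries were not tied by the labels, and the correlations of their deviations were 0.0117, -0.00755 and -0.0278, so the numbers were not taken as pairs. The alternatives were a replicate block, each library left out, no filter, a minimum of 5 TPM, median-ratio scaling, quantile normalization, limma with neither trend nor robust settings, a pseudocount of 0.1 or 5, and a correction of each library for the length and GC content of transcripts (loess of span 0.3 and degree 1 on 11741 genes, 93.4% of those tested, GENCODE release 29, with a value for all 77 members). The counts and medians by origin under each alternative, and the ratio without the 3 highest members, were added after seeing the data. Plots were made in Python 3.11.15 using matplotlib 3.10.9.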

Additional observations from a re-analysis of the deposited data

How the results depend on the processing

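With no filter on low values 1477 genes were called, against 3773, and 10 members fell, 9 with a bacterial counterpart and 1 mitochondria-specific. Under quantile normalization 16 members fell and 5 rose (13 with a bacterial counterpart and 3 mitochondria-specific fell), with medians of -0.091 for MRPL and -0.024 for MRPS. Without trend and robust settings 15 fell (12 and 3). With the replicate block, where replicate numbers served as pairs, 17 members fell, 3 of them mitochondria-specific, and 3 rose. The MRPL median was -0.13 under median-ratio scaling, -0.14 with a pseudocount of 5 and -0.23 after the length and GC correction. That correction gave -0.16 for MRPL minus MRPS and -0.23 for bacterial counterpart minus mitochondria-specific, with 17 and 7 falls in these classes. Leaving out 1 library gave 2554 to 3455 calls over all genes. It left 15 to 23 members that fell, 12 to 19 with a bacterial counterpart and 2 to 4 mitochondria-specific. It gave MRPL medians of -0.18 to -0.14, differences between subunits of -0.099 to -0.047 and differences between origins of -0.21 to -0.15. Without the 3 highest members the large to small ratio differed by -0.0897 between NEN and DMSO. The cause of these shifts was not tested. Using no filter adds genes to the fit and to the adjustment, and leaving out a library removes samples. The median over all genes moved by less than 0.1 under each scaling. With 3 libraries per group and no read numbers, the precision of low members such as MRPL50 cannot be set beside a counting error.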
